A study of Mus musculus with 15 samples.

Results

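The comparison described here set UCP1-positive adipocytes of inguinal fat after roscovitine (RS, 2 arrays) against UCP1-positive adipocytes of the same depot after rosiglitazone (RG, 3 arrays). The arrays were chosen by the treatment and title in their labels, so that 5 of the 15 arrays of the series entered, and no measured value was used to choose them. All 25206 probe sets were compared, each a set of oligonucleotides for 1 gene, and 23740 of them carried 1 gene symbol. Of the arrays left, 3 held UCP1-positive cells of inguinal fat after CL316243 (CL), a drug that stimulates beta-adrenergic receptors. Another 3 held UCP1-positive brown adipocytes (BAT) and 4 held UCP1-negative white adipocytes of inguinal fat (WAT), both of untreated mice. They entered here through the shared estimate of the spread and as levels set beside RS and RG.

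RS and RG cells came from mice aged 8 to 10 weeks that carried a reporter of Ucp1, kept on standard chow, and were sorted by flow cytometry on that reporter. The labels name the mice UCP1/Tomato and the sorting marker UCP1(GFP). The cell type field reads Brite adipocyte for RS and Beige adipocyte for RG. No dose, route, duration, sex or array batch is given, and whether the arrays of a group came from separate animals is not stated, so that p-values measure only the spread between these samples, which may be technical. UCP1-positive cells of untreated inguinal fat were not among the arrays. The values therefore say how the cells gated after the 2 drugs differed from each other, not what either drug changed. Each array holds the RNA of many sorted cells, in which fewer cells of a type and less RNA per cell cannot be told apart.

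UCP1 lets protons back across the inner mitochondrial membrane without making ATP and so releases heat. It marks brown adipocytes and the beige (brite) adipocytes that appear in white fat. Rosiglitazone binds and activates PPARG, the nuclear receptor that directs adipocyte differentiation, which pairs with RXR on DNA and reads the hexamer AGGTCA. Roscovitine inhibits cyclin-dependent kinases, among them CDK5, which phosphorylates PPARG in adipocytes. A ligand in the pocket of PPARG, rosiglitazone included, also hinders that phosphorylation, so both drugs are known to act on the same receptor by different routes.

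The 2 RS arrays lay further apart than any pair of RG arrays. Across all probe sets the standard deviation of the difference between RS 3 and RS 4 was 0.58 on the log2 scale, against 0.35 to 0.45 between pairs of RG arrays. It was 0.51 to 0.61 between an RS and an RG array. RS 3 and RS 4 were over 1 log2 unit apart in 1929 probe sets, against 319 to 854 for pairs of RG arrays. RS 3 also carried the highest level of Xist, the RNA of the inactive X chromosome, of all 15 arrays, and the lowest levels of the Y-linked genes Ddx3y, Eif2s3y, Kdm5d and Uty. Xist was at 7.83 in RS 3 and 3.95 in RS 4, against 3.68, 1.98 and 3.31 in RG 2, RG 3 and RG 4, with 1.77 to 5.68 in the CL, BAT and WAT arrays. Ddx3y, a Y-linked RNA helicase, was at 3.46 in RS 3 and 5.47 in RS 4, against 5.93, 6.43 and 5.58 in the RG arrays. The labels give no sex, and the part of this in the results was not tested.

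The genes that define a heat-producing adipocyte did not pass the test between RS and RG. Ucp1 was at 6.05 and 8.43 in RS 3 and RS 4, against 7.69, 7.96 and 8.88 in RG 2, RG 3 and RG 4. The RS arrays lay below and inside the RG range, and the difference was -0.94 ± 0.56 (SE, limma over 15 arrays, 95% interval -2.12 to 0.25, adjusted p = 0.39). Without RS 3 it was 0.25, with an adjusted p = 0.848, and without RS 4 it was -2.13, with an adjusted p = 0.0862. The cells were gated on the Ucp1 reporter, and the part of the sort in the level of Ucp1 was not tested. Cidea, a lipid droplet protein of brown fat, was at 9.33 and 8.53 in RS, against 8.38, 8.37 and 9.38 in RG (difference 0.22 ± 0.49, adjusted p = 0.851). The fatty acid elongase Elovl3 was at 4.67 and 5.71 in RS, against 5.06, 5.02 and 6.17 in RG (adjusted p = 0.819). Both genes overlapped between the groups. For Cox7a1, a subunit of cytochrome c oxidase, the values were 6.71 and 7.59 in RS, against 7.53, 7.34 and 8.07 in RG (difference -0.50 ± 0.37, adjusted p = 0.501). The coactivator Ppargc1a differed by -0.33 ± 0.37 and the transcription factor Prdm16 by 0.02 ± 0.23, with adjusted p-values of 0.677 and 0.974. In the other groups Ucp1 averaged 10.4 ± 0.19 in CL and 10.9 ± 0.57 in BAT (SD, n = 3 each), against 4.02 ± 0.58 in WAT (SD, n = 4).

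Fat cell identity genes were high in all 5 arrays, as a check of the label adipocyte. Adipoq, the hormone adiponectin, was at 10.80 and 10.69 in RS, against 10.54, 10.57 and 11.04 in RG (difference 0.03, 95% interval -1.12 to 1.17, adjusted p = 0.984). Fabp4, the fatty acid carrier of adipocytes, differed by 0.06 ± 0.20 and Plin1, the coat protein of the lipid droplet, by 0.06 ± 0.50. Lep, the hormone leptin, was at 7.95 and 7.72 in RS, against 8.05, 7.72 and 8.86 in RG (adjusted p = 0.76). The 95% intervals of Adipoq, Plin1 and Lep reach beyond 1 log2 unit, so a missed threshold does not show equal levels.

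**Figure D1:**
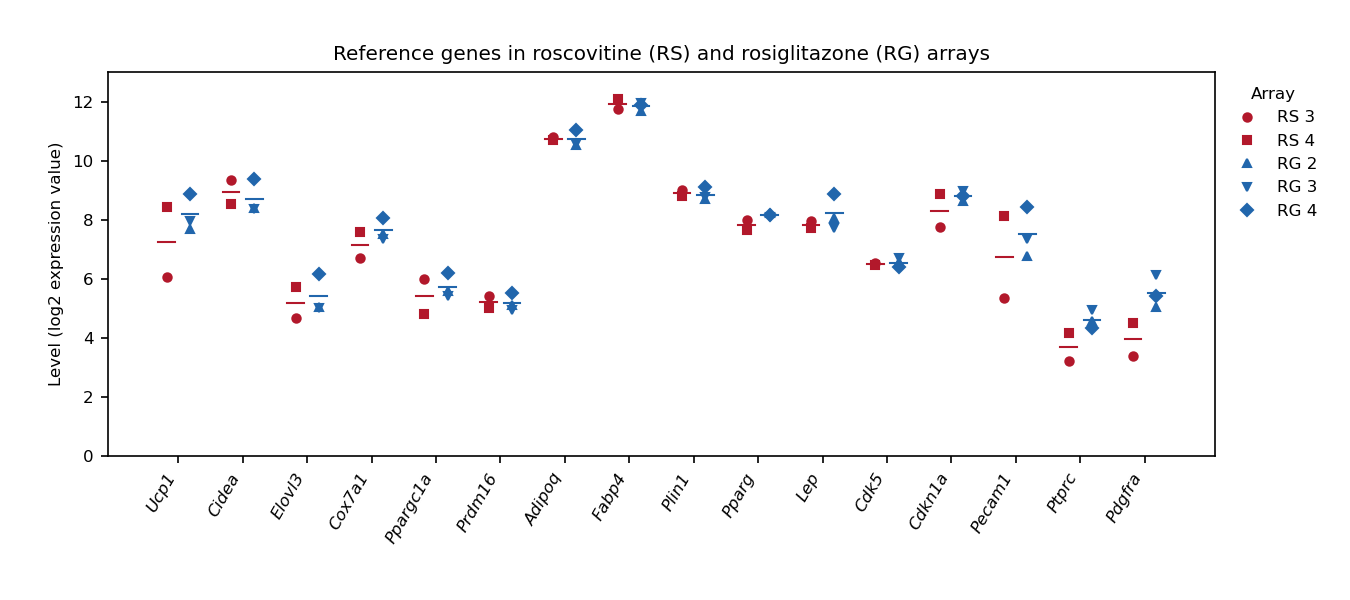
Levels (log2 expression values, y axis) of 16 reference genes (x axis) on each RS array (red) and RG array (blue), with a bar at the group mean. Ucp1 in RS spans 6.05 to 8.43 and takes in 2 of the RG values, while Adipoq, Fabp4 and Plin1 lie close together in both groups.

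Pparg and Cdk5, whose proteins the 2 drugs are known to act on, did not pass the test either. Pparg was at 7.99 and 7.64 in RS, against 8.23, 8.10 and 8.17 in RG. Both RS arrays were lower than every RG array, and the difference of -0.35 ± 0.20 did not pass (adjusted p = 0.375). Cdk5 was at 6.52 and 6.48 in RS, against 6.56, 6.69 and 6.39 in RG (difference -0.05 ± 0.21, adjusted p = 0.932). Neither measurement speaks to the activity of the receptor or the kinase. Of 39 PPARG agonist targets measured, 0 were called in either direction by limma and 0 had an unadjusted p under 0.05. Their median difference was -0.11, with 12 members above 0 and 27 below, beside 0.0067 over all probe sets and -0.20 over those with a mean level above 5. It was -0.185 without RG 3 and -0.005 without RG 4. The lowest p among them belonged to the droplet protein Plin5, at 5.09 and 5.10 in RS, against 5.31, 5.57 and 5.95 in RG (difference -0.52 ± 0.27, adjusted p = 0.328). Of 17 genes known to respond to CDK5 phosphorylation of PPARG, 0 were called, and 1 in each direction had an unadjusted p under 0.05. These were Peg10, a gene of retrotransposon origin, and Acyp2, an acylphosphatase. Peg10 was at 5.48 and 5.08 in RS, against 4.67, 4.56 and 4.31 in RG, a difference of 0.77 ± 0.23 (adjusted p = 0.102) with no overlap. Acyp2 was at 5.92 and 5.96 in RS, against 6.45, 6.45 and 6.71 in RG, a difference of -0.60 ± 0.25 (adjusted p = 0.225), also with no overlap. The list's median was 0.04. The 29 thermogenic genes and the 12 beige-selective markers had medians of 0.02 each, with no member called, and 3 thermogenic genes had an unadjusted p under 0.05 on the lower side. The first was Clstn3, a gene with a form known from lipid droplets of adipocytes, at 3.32 and 2.89 in RS, against 3.81, 3.57 and 3.89 in RG (difference -0.65 ± 0.18, adjusted p = 0.086). Ebf2, a transcription factor of brown and beige precursors, was at 5.85 and 5.43 in RS, against 6.0, 6.50 and 6.65 in RG (difference -0.74 ± 0.27, adjusted p = 0.173). Neither gene overlapped between the groups. Among the beige-selective markers 1 had an unadjusted p under 0.05, the transcription factor gene Tbx1, on the higher side. Tbx1 was at 4.12 and 3.87 in RS, against 3.40, 3.22 and 3.84 in RG (difference 0.51 ± 0.21, adjusted p = 0.215), and the groups did not overlap.

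Over all probe sets 172 of 25206 were called (adjusted p under 0.05), which is 0.682%, with 87 higher in RS (0.345%) and 85 lower (0.337%). At an unadjusted p under 0.05 there were 4676 (18.6%). None of the 172 overlapped between the 2 RS and 3 RG arrays, and 34.6% of all probe sets did not overlap either. The called differences were modest. Those of genes called higher ran between 0.79 and 2.18 log2 units (median 1.07) and those of genes called lower between -0.76 and -2.26 (median -1.07), with 54 and 55 beyond 1 log2 unit. The 2 directions came from different parts of the level range. Of the 87 called higher, 1 had a mean level above 5 over the 5 arrays (1.15%), and their median level was 2.58. Of the 85 called lower, 41 did (48.2%), and their median level was 4.98. Over all probe sets 23.6% did, with a median level of 3.37.

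**Figure D2:**
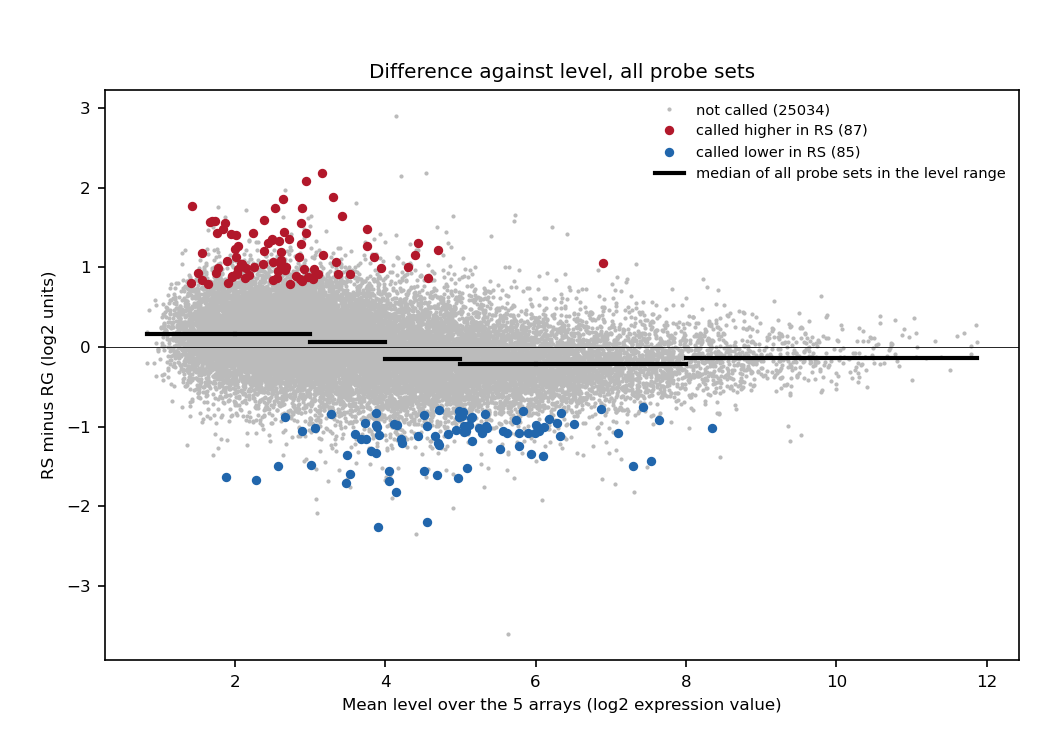
RS minus RG (log2 units, y axis) against the mean level over the 5 arrays (log2 expression value, x axis) for all 25206 probe sets, with the 87 called higher in red, the 85 called lower in blue and the median of all probe sets per level range as black lines. The red points gather at low levels, and the black lines lie above 0 at levels under 4 and below 0 at higher levels.

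The same tilt ran through all probe sets, called or not. The median difference was 0.16 for probe sets at levels of 2 and under and 0.16 between 2 and 3, then -0.16 between 4 and 5, -0.21 between 5 and 6 and -0.22 between 6 and 8. RS 3 and RS 4 showed it separately, with medians of 0.11 and 0.18 at levels between 2 and 3 and of -0.22 and -0.24 between 6 and 8. The standard deviation over probe sets was 1.75 and 1.69 in RS 3 and RS 4, against 1.83 to 1.85 in the RG arrays, so the RS values spanned a narrower range. Probe sets for olfactory and vomeronasal receptors, which fat cells are not known to use as odour sensors, moved with it. These 1354 probe sets had a median difference of 0.15, with 12 called higher and 1 lower, beside 0.446% called higher and 0.228% called lower among all probe sets at levels of 5 and under. The 4418 probe sets of predicted or unnamed genes gave 25 of the calls higher and 15 of the calls lower, and the 356 of antigen receptor segments 5 and 0. Over all 25206 probe sets 0.345% were called higher and 0.337% lower. Quantile normalization, which gives every array the same distribution, called 44 probe sets, 22 in each direction. Centring each array on its median called 67 higher and 139 lower, so that 32.5% were higher, against 50.6% as deposited. Small differences leaned higher at low levels and lower at high ones, and the part of the array-wide range in single calls was not tested.

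Genes called lower in RS held most of the named genes at clear levels. Mzt1, a small protein that recruits the gamma-tubulin complex to centrosomes, had the lowest adjusted p among the named decreases. It was at 5.19 and 5.07 in RS, against 6.53, 6.55 and 6.33 in RG, a difference of -1.34 ± 0.16 (SE, n = 2 and 3, limma, adjusted p = 0.00341). The groups lay over 1 log2 unit apart, and CL, BAT and WAT averaged 5.94 ± 0.06, 5.95 ± 0.03 and 6.01 ± 0.16 between them. The call was kept in 12 of 14 other settings, including each in which 1 of the 5 arrays was left out.

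Grb14, Gdf15, Rabif and Akt1s1 were called lower in RS. Grb14, an adaptor that binds the insulin receptor and inhibits its kinase, was at 3.83 and 3.63 in RS, against 5.25, 5.18 and 5.57 in RG (difference -1.60 ± 0.29, adjusted p = 0.0302). The arrays did not overlap, and CL, BAT and WAT averaged 4.45, 4.78 and 4.18. It was the 1 called member of 20 insulin signalling genes, whose median was -0.12, beside 0.337% called lower over all probe sets and 0.69% at levels above 5. The list had no call with the 5 arrays fitted alone, quantile normalization, the level filter at 5, array weights or the replicate block, or without RS 4, RG 2, RG 3 or RG 4. Rheb, the GTPase that activates mTORC1, had the next lowest p in that list, at 5.80 and 5.59 in RS, against 6.77, 6.22 and 6.63 in RG (difference -0.84 ± 0.23, adjusted p = 0.077). Gdf15, a stress-induced hormone that lowers food intake through a receptor in the hindbrain, was at 3.07 and 2.99 in RS, against 4.40, 4.62 and 4.00 in RG (difference -1.31 ± 0.24, adjusted p = 0.0304). RS also lay below CL (4.46 ± 0.07), BAT (3.54 ± 0.26) and WAT (5.26 ± 0.35). Rabif, which stabilises Rab GTPases of vesicle traffic, was at 4.28 and 4.07 in RS, against 5.55, 5.89 and 5.65 in RG (difference -1.52 ± 0.23, adjusted p = 0.0178). Its mean was 5.43 to 5.90 in the other groups, so RS stood apart on the low side. Akt1s1, an Akt substrate that restrains mTORC1, was named after its values were seen, at 3.96 and 4.03 in RS, against 5.02, 4.91 and 5.41 in RG (difference -1.12 ± 0.21, adjusted p = 0.034). Grb14 and Gdf15 kept their calls without RS 3 (adjusted p = 0.042 and 0.0497) and lost them without RS 4 (0.0896 and 0.0885) and without RG 2, RG 3 or RG 4, where adjusted p ran between 0.0528 and 0.107. Rabif lost its call without RS 4 (0.0588), RG 3 (0.0837) or RG 4 (0.0528), and Akt1s1 without any 1 of the 5 arrays.

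The promoters of Gdf15 and Mzt1 are shown because of the PPARG/RXR hexamer AGGTCA, searched on both strands and printed in capitals. Among the 24 genes named by size, they are the decreases found to hold it in the 250 bases before the annotated start. No promoter sequence was available for Higd1c and Cldn34c2, so those genes were not searched. Sequences are from RefSeq on GRCm38.p6, 5′ to 3′ along the gene. Gdf15 lies on the minus strand at chr8:70632457-70632706, with the hexamer starting at -55 from the start. Mzt1 lies on the minus strand at chr14:99046137-99046386, with the hexamer starting at -234.
Gdf15: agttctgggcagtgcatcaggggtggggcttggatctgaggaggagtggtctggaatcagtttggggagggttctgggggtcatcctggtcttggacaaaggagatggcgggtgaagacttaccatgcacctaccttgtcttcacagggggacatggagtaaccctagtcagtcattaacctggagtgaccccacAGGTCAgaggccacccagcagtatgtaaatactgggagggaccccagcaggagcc
Mzt1: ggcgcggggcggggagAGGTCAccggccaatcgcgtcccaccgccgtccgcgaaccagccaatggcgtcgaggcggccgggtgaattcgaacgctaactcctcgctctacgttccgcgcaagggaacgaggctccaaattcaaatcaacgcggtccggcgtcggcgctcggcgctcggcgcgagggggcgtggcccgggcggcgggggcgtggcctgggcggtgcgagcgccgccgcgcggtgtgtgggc
The hexamer stood in 12.6% of 17708 promoters of tested genes, in 6 of 59 promoters of genes called higher (10.2%) and in 7 of 61 of genes called lower (11.5%). The direct repeat AGGTCANAGGTCA, the form that PPARG and RXR bind as a pair, stood in 9 promoters in all and in 0 of the called ones. A match is a description of these letters, not a binding site.

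Serpina3f, a serine protease inhibitor of a cluster of near-identical genes, had the largest named decrease. It was at 2.39 and 2.71 in RS, against 5.35, 5.27 and 3.82 in RG (difference -2.26 ± 0.45, adjusted p = 0.036). The RS values lay near CL (2.26 ± 0.51) and BAT (2.94 ± 0.56), and RG near WAT (4.91 ± 0.47). Its call was lost without RS 3, RS 4, RG 2 or RG 3 (adjusted p of 0.0826 to 0.118). Eif2s3y, a translation initiation factor on the Y chromosome, was at 2.55 and 3.92 in RS, against 5.13, 5.67 and 5.51 in RG (difference -2.20 ± 0.36, adjusted p = 0.0228). It is 1 of the 4 Y-linked genes that RS 3 carried lowest, and its call was lost without RS 3 (adjusted p = 0.0533), RG 3 (0.0898) or RG 4 (0.0687). Tlcd3a, a membrane protein with a TLC domain, was at 3.20 and 2.89 in RS, against 4.72, 4.33 and 5.12 in RG (difference -1.68 ± 0.29, adjusted p = 0.0275). Its mean in CL, BAT and WAT was 5.16, 4.34 and 5.20, above RS in each, and its call was lost without RS 4, RG 2, RG 3 or RG 4 (adjusted p of 0.0578 to 0.09). The others of the 12 largest decreases were the claudin Cldn34c2 (-1.71), the histone H2B gene H2bc7 (-1.48), Fdxacb1 (-1.36), the zinc finger gene Zfp526 (-1.33) and Chtop (-1.25), which takes part in mRNA export. Fdxacb1 was at 2.84 and 2.53 in RS, against 4.05, 4.08 and 3.99 in RG (adjusted p = 0.0155), and it lost its call without RS 4 (0.0586) and without RG 3 (0.0679). H2bc7, Zfp526 and Chtop lost theirs without RG 2, RG 3 or RG 4. Their adjusted p then ran from 0.0528 to 0.108, from 0.0848 to 0.123 and from 0.0917 to 0.11. Cldn34c2 lost its call without RG 2 or RG 3 (0.114 and 0.122). H2bc7, Zfp526 and Chtop also lost theirs without RS 3, and Cldn34c2, Zfp526 and Chtop without RS 4.

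Other called decreases are given by what their proteins do, a grouping made after their values were seen. Max, the partner that MYC needs to bind the E-box CACGTG, was at 5.41 and 5.89 in RS, against 6.78, 6.88 and 6.65 in RG (difference -1.12 ± 0.21, adjusted p = 0.0304). The E-box stood in 6.84% of all promoters, in 3 of 59 called higher (5.08%) and in 2 of 61 called lower (3.28%). Vdac2, a channel of the outer mitochondrial membrane, was at 7.57 and 7.90 in RS, against 8.63, 9.06 and 8.57 in RG (difference -1.02 ± 0.19, adjusted p = 0.0336). Cd274, the immune checkpoint ligand PD-L1, was at 5.21 and 5.07 in RS, against 6.24, 6.57 and 5.83 in RG (difference -1.07 ± 0.20, adjusted p = 0.0304). In each of the 3 genes every RS array lay below every RG array. Proteins that handle ubiquitin or SUMO, or assemble the proteasome, were Uchl5, a deubiquitinase of the proteasome (-1.08), Psmd10, a chaperone of proteasome assembly (-1.05), Ube2g1, a ubiquitin-conjugating enzyme (-0.98), and Senp6, a SUMO protease (-1.08). Senp6 was at 5.46 and 5.05 in RS, against 6.33, 6.34 and 6.34 in RG (adjusted p = 0.0207). Genes of the centromere and mitosis were Cenpa, the histone H3 variant of centromeres (-0.84), Mis12, a kinetochore protein (-1.15), and Mastl, the Greatwall kinase (-1.01). Cenpa was at 2.80 and 2.75 in RS, against 3.59, 3.49 and 3.78 in RG (adjusted p = 0.0493). The lists of cell cycle and proteasome genes held 1 call of 44 and 0 of 33, beside 0.337% called lower over all probe sets. Of the cell cycle genes 25 lay above 0 and 19 below (median 0.05), so the list did not share the lean of the 3 mitosis genes. Of the proteasome genes 1 lay above 0 and 32 below (median -0.34). Leaving out RG 3 ended the call of each gene in the present paragraph (adjusted p of 0.0837 to 0.11), as did leaving out RG 2 (0.0658 to 0.112). Without RS 3, Cd274, Psmd10 and Senp6 kept their calls (0.044, 0.0249 and 0.0179) and the others lost theirs (0.0509 to 0.112). Without RS 4 Max kept its call (0.0474) and the others lost theirs (0.0586 to 0.116).

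The genes called higher in RS were mostly ones that adipocytes are not known for, at low levels. Higd1c, of a family of hypoxia-inducible mitochondrial proteins, had the largest named increase. It was at 4.64 and 3.77 in RS, against 2.56, 2.31 and 1.49 in RG (difference 2.08 ± 0.41, SE, n = 2 and 3, adjusted p = 0.036). BAT averaged 3.79 ± 0.71, CL 2.44 ± 0.28 and WAT 2.18 ± 0.45, so RS lay nearest to brown adipocytes. Its call was lost on leaving out any 1 of the 5 arrays (adjusted p of 0.0586 to 0.111). Cyp3a41b, a cytochrome P450 of liver, was at 2.38 and 2.60 in RS, against 0.58, 1.09 and 0.49 in RG (difference 1.77 ± 0.26, adjusted p = 0.0155), and averaged 1.02 to 1.62 in the other groups. It kept its call without RS 3 (adjusted p = 0.0244) and without RG 3 (0.0167), and lost it without RS 4 (0.0586), RG 2 (0.0539) or RG 4 (0.0562). The hair keratin-associated genes Krtap5-2 (1.74) and Krtap9-3 (1.41), the chitinase-like Chil4 (1.48), the X-linked Btbd35f28 (1.45), the transporter family member Slc7a14 (1.43) and the ring-finger gene Trim60 (1.36) followed. Genes best known from liver made up the others, with Acnat1, which conjugates fatty acids to amino acids (1.42), Serpinc1, the anticoagulant antithrombin (1.33), and Cyp2c50, a cytochrome P450 (1.23). Of these 9, Krtap5-2, Slc7a14, Acnat1 and Serpinc1 lost the call without RS 3 (adjusted p of 0.0852 to 0.0935), and all 9 lost it without RS 4 (0.0525 to 0.189). Without RG 3 or RG 4 all 9 lost the call as well (limma, adjusted p of 0.0875 to 0.131). Without RG 2 all but Krtap5-2 lost it (0.079 to 0.119). Chil4 differed by 2.04 without RS 3 and by 0.92 without RS 4. Several of the 9 belong to families with near-identical copies, whose signal may be shared between copies. No member of the list of 20 liver-type secreted proteins was called, and its median was 0.15, beside 0.08 for all probe sets at levels of 5 and under. That list does not hold Serpinc1, and its largest difference was 1.025.

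Isyna1 was the 1 of the 12 largest named increases with both RS arrays above 5. It makes inositol phosphate from glucose 6-phosphate, the first step of inositol synthesis, and was at 5.17 and 5.26 in RS, against 4.06, 3.88 and 3.80 in RG (difference 1.30 ± 0.24, adjusted p = 0.0304). WAT averaged 5.39 ± 0.35, CL 4.58 ± 0.10 and BAT 4.51 ± 0.39, so RG had the lowest mean of the 5 groups. The call was lost on leaving out any 1 of the 5 arrays (adjusted p of 0.0509 to 0.1). Among others, named after their values were seen, the lipase family member Lipo4 was at 5.18 and 5.70 in RS, against 4.17, 4.32 and 4.17 in RG (difference 1.22 ± 0.22, adjusted p = 0.0304). The membrane protein Gpr155, a lysosomal cholesterol sensor, was at 5.49 and 4.68 in RS, against 3.91, 3.97 and 3.92 in RG (difference 1.15 ± 0.21, adjusted p = 0.0304). In Lipo4 and Gpr155 the groups did not overlap, and each lost its call without RG 2, RG 3 or RG 4 (adjusted p of 0.0847 to 0.0951). Lipo4 also lost it without RS 4 (0.96, adjusted p = 0.112). Gpr155 lost it without RS 3, where the difference was 0.75 (adjusted p = 0.0865).

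**Figure D3:**
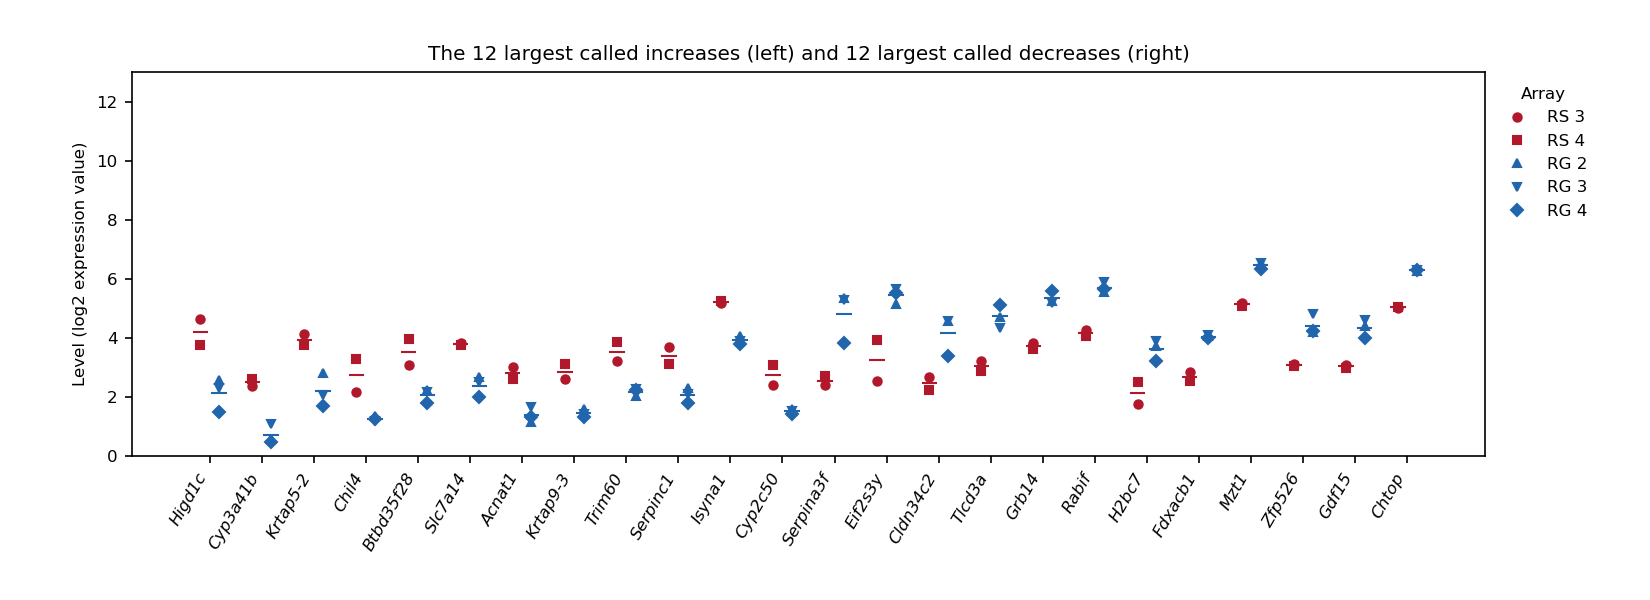
Levels (log2 expression values, y axis) of the 12 largest named increases (left) and 12 largest named decreases (right) on each RS array (red) and RG array (blue), with a bar at the group mean. No gene overlaps between the groups, and Isyna1 is the 1 increase with both RS arrays above 5.

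Of the 538 microRNA genes on the array, 4 were called higher and 0 lower by limma, with a median difference of 0.15 over all of them. Over all probe sets 0.345% were called higher, and 0.446% of those at levels of 5 and under. The 4 were Mir138-1, Mir200a, Mir3083 and Mir3961, named after their values were seen. Mir138-1 had the lowest adjusted p of these, at 3.30 and 3.41 in RS, against 1.56, 2.01 and 1.70 in RG (difference 1.60 ± 0.18, adjusted p = 0.00269). These are low levels, under the medians of all probe sets in RS 3 and RS 4 (3.39 and 3.46). In RG they lay near the 10th percentiles of 1.81 to 1.87. The call of Mir138-1 was kept without RG 2, RG 3 or RG 4 (adjusted p of 0.00614 to 0.0225). It was lost with the 5 arrays fitted alone (0.147) and with the replicate block (0.116). The difference was 1.65 without RS 3 and 1.54 without RS 4. Mir3961 was at 3.72 and 5.22 in RS, against 2.41, 2.59 and 1.86 in RG (difference 2.18 ± 0.44, adjusted p = 0.0393). It differed by 1.43 without RS 4 (adjusted p = 0.157). Mir200a, Mir3083 and Mir3961 kept their calls without RS 3 (0.0188 to 0.0386) and lost them without RS 4 (0.147 to 0.189) or without RG 2, RG 3 or RG 4 (0.0917 to 0.129). The probe sets report labelled RNA of the microRNA gene and do not tell the mature form from its precursor. The mature sequences of Mir138-1 are printed because it is the small RNA of lowest p, from RefSeq on GRCm38.p6, 5′ to 3′, with the seed (bases 2 to 8) in capitals. They lie on the plus strand at chr9:122682898-122682920 and chr9:122682936-122682957.
mmu-miR-138-5p: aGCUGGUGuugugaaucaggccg
mmu-miR-138-1-3p: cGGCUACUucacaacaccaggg
The 2 arms have different seeds, and targets were not examined.

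The RS and RG means of the called probe sets were also placed among those of the other groups. Of the 85 called lower, both the RS and the RG mean lay outside the range of the CL, BAT and WAT means in 52 (61.2%), only RS in 21 (24.7%), only RG in 8 (9.41%) and neither in 4 (4.71%). For the 87 called higher the shares were 47.1% for both, 40.2% for only RS, 5.75% for only RG and 6.9% for neither. Over all probe sets they were 21.5%, 21.8%, 14.1% and 42.6%. A called difference has to be wide, so these shares are a description of where the 2 means lay.

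Fuel-burning lists held no call, and they leaned lower in RS, as did probe sets at levels above 5 in general. Of 25 fatty acid oxidation genes 22 had a difference below 0, with a median of -0.36, and 0 were called or had an unadjusted p under 0.05. Cpt1a, which admits fatty acids to mitochondria, was at 5.07 and 5.77 in RS, against 5.81, 6.22 and 6.10 in RG (difference -0.62 ± 0.32, adjusted p = 0.314). The RS arrays both lay below the RG arrays. Etfa, which passes electrons from beta-oxidation to the respiratory chain, was at 9.26 and 9.72 in RS, against 9.97, 9.93 and 10.19 in RG (difference -0.54 ± 0.28, adjusted p = 0.323). The 25 TCA cycle genes had a median of -0.27 with 21 below 0. The 66 oxidative phosphorylation genes had a median of -0.15 with 53 below 0, and neither list held a call. On the lower side 1 TCA cycle gene and 2 oxidative phosphorylation genes had an unadjusted p under 0.05, and on the higher side 0. Without RG 4 the 3 medians were -0.205, -0.14 and -0.085. The citrate synthase gene Cs was at 8.10 and 8.58 in RS, against 8.86, 8.82 and 9.04 in RG (difference -0.57 ± 0.26, adjusted p = 0.252). These medians stand beside -0.20 for all probe sets at levels above 5. There 951 (16%) had an unadjusted p under 0.05 on the lower side and 90 (1.51%) on the higher side. The oxidative phosphorylation median did not reach that lean. Each of the 3 lists held a smaller share of low p-values on the lower side.

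Mitochondrial ribosomal proteins and the proteasome showed the same lean, with more low p-values than the fuel-burning lists. Of 71 mitochondrial ribosomal proteins 60 lay below 0, with a median of -0.23, and 16 had an unadjusted p under 0.05, all lower, with 0 called. Among all probe sets at levels above 5 the median was -0.20, and 16% had an unadjusted p under 0.05 on the lower side. The median of the mitochondrial ribosomal proteins thus lay near that of all probe sets at such levels. Mrps33 was at 4.75 and 4.89 in RS, against 6.06, 5.95 and 6.09 in RG (difference -1.21 ± 0.31, adjusted p = 0.070). Mrpl18 was at 6.73 and 6.45 in RS, against 7.31, 7.38 and 7.41 in RG (difference -0.78 ± 0.20, adjusted p = 0.071). In both genes the groups did not overlap. Of 33 proteasome genes 32 lay below 0, with a median of -0.34, and 11 had an unadjusted p under 0.05, all lower, with 0 called. Psmd11, a subunit of the lid of the proteasome, was at 7.65 and 8.01 in RS, against 8.68, 8.58 and 8.38 in RG (difference -0.72 ± 0.19, adjusted p = 0.076). The proteasome median was -0.37 in RS 3 and -0.25 in RS 4, each taken against the RG mean. All probe sets at levels above 5 had medians of -0.19 in RS 3 and -0.23 in RS 4. The proteasome median of RS 4 thus lay near that of all probe sets at such levels.

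Lipid-making lists parted the 2 RS arrays. The 17 genes of de novo lipogenesis had a median difference of 0.34, with 15 above 0 and 0 called, and it was 0.81 in RS 3 and 0.12 in RS 4. Elovl6, an elongase of saturated fatty acids, was at 8.76 and 6.70 in RS, against 7.22, 6.44 and 6.96 in RG (adjusted p = 0.508). Its RS 3 value lay above, and its RS 4 value within, the RG range. The 24 cholesterol synthesis genes had medians of 0.67 in RS 3 and -0.27 in RS 4, and the 24 genes of the unfolded protein response 0.42 and -0.18. In triglyceride synthesis, with 19 genes and a median of -0.02, Mogat2, which adds a fatty acid to monoacylglycerol, was at 4.09 and 4.19 in RS, against 3.26, 3.31 and 3.22 in RG (difference 0.88 ± 0.23, adjusted p = 0.075). The groups of Mogat2 did not overlap.

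Cell cycle and CDK lists held 1 call. Of 44 cell cycle genes 1 was called lower (Cenpa, above) and 0 higher, beside 0.337% called lower over all probe sets. That call was lost in each setting run except median centring and leaving out WAT 4. The list had a median of 0.05 and mean levels of 3.28 and 3.32 in RS, against 3.31, 3.21 and 3.37 in RG. The 31 cyclin-dependent kinases and partners had 0 calls and a median of -0.10. Cdk5r1, the p35 activator of CDK5, was at 3.29 and 3.52 in RS, against 2.64, 2.78 and 2.79 in RG (difference 0.67 ± 0.24, adjusted p = 0.16), with no overlap. Cdk4, a kinase of the G1 phase, was at 6.09 and 6.15 in RS, against 6.35, 6.58 and 6.49 in RG (difference -0.35 ± 0.19, adjusted p = 0.336), also with no overlap. Of 22 p53 targets, Gdf15 was the 1 called, and the median was -0.20, at -0.20 in RS 3 and 0.15 in RS 4. Over all probe sets 0.337% were called lower, with a median of 0.0067, and at levels above 5 0.69%, with a median of -0.20. The p53 list had no call with the 5 arrays fitted alone, the level filter at 5, array weights or the replicate block, or without RS 4, RG 2, RG 3 or RG 4. Cdkn1a, the CDK inhibitor p21, was at 7.74 and 8.87 in RS, against 8.62, 8.96 and 8.80 in RG (adjusted p = 0.434), and Sesn2, a stress-induced inhibitor of mTORC1, at 5.68 and 6.10 in RS, against 6.52, 6.88 and 6.65 in RG (difference -0.79 ± 0.20, adjusted p = 0.069). Of 32 interferon-stimulated genes 25 lay below 0, with a median of -0.31 (-0.14 without RG 2) and 0 called. Oas1g, an antiviral RNA sensor, was at 1.50 and 2.20 in RS, against 4.06, 4.95 and 2.79 in RG (difference -2.08 ± 0.47, adjusted p = 0.054), and it passed without RG 4 (-2.66, adjusted p = 0.0204) and after median centring (0.0489).

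**Figure D4:**
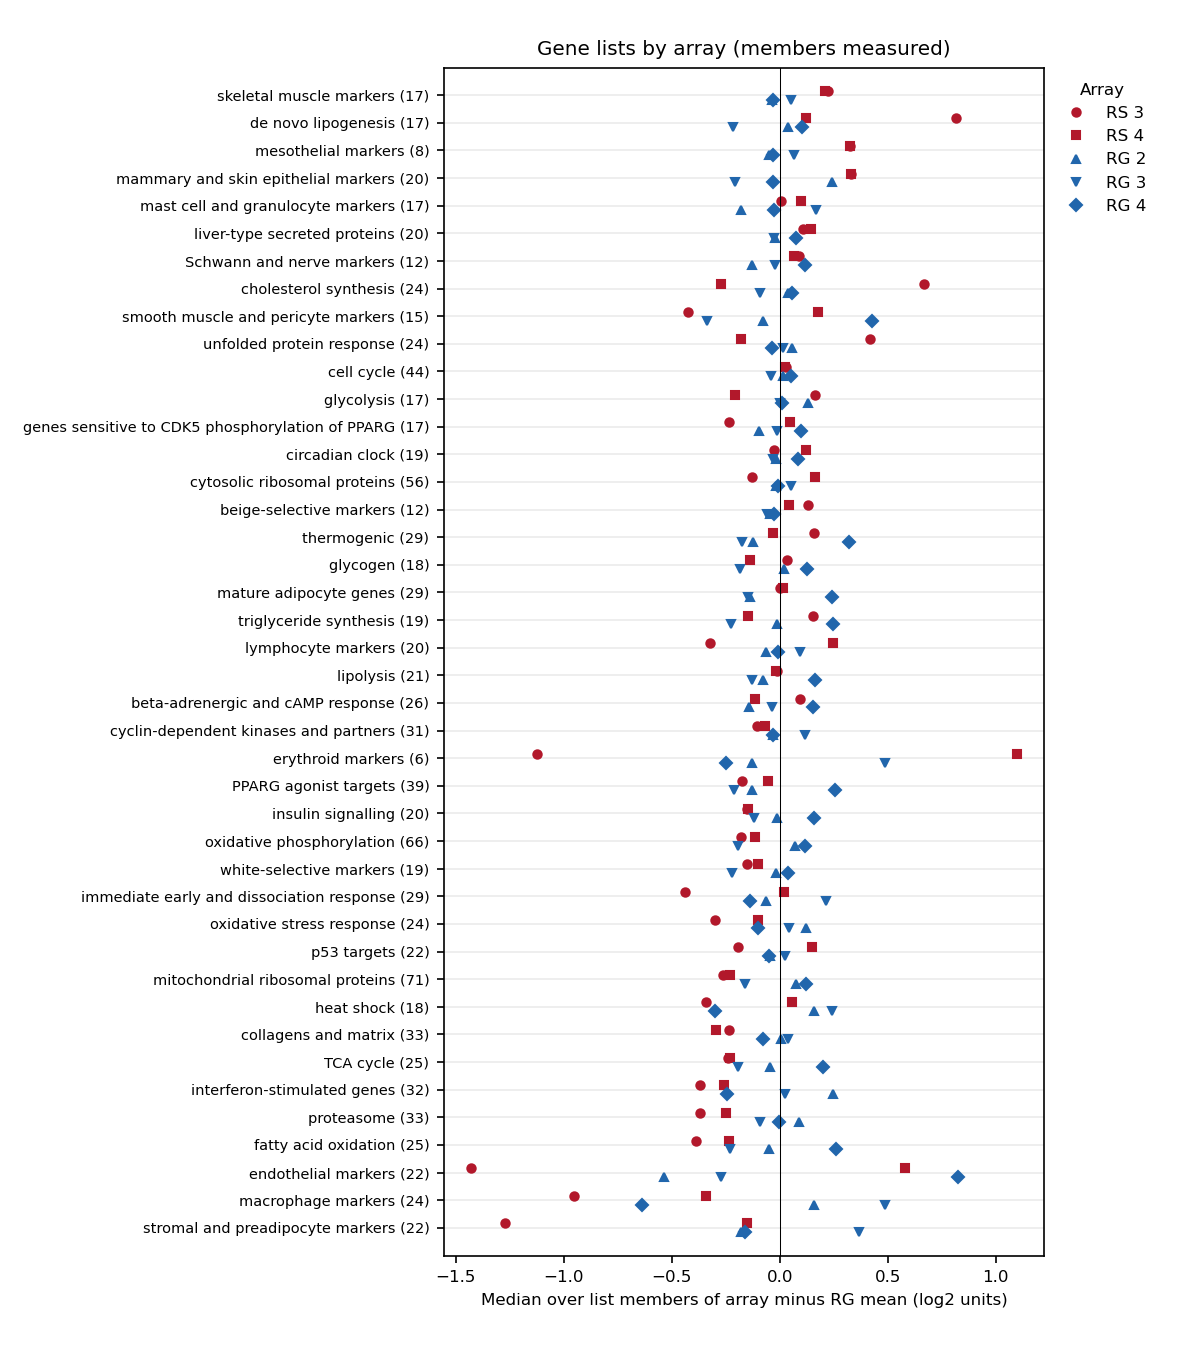
Median over the members of each gene list (y axis, with the number measured) of an array's level minus the RG mean (log2 units, x axis), for the RS arrays in red and the RG arrays in blue. RS 3 and RS 4 lie on opposite sides of 0 for endothelial (-1.43 and 0.58), erythroid (-1.13 and 1.10) and cholesterol synthesis genes (0.67 and -0.27), and together below 0 for the proteasome (-0.37 and -0.25).

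Markers of other cell types held 0 calls in the 3 lists given here, and their levels differed between the RS arrays. The mean level of 22 endothelial markers was 4.16 in RS 3 and 6.11 in RS 4, against 5.04, 5.29 and 6.26 in RG, with 0 called and a median difference of -0.40 that became 0.58 without RS 3, -1.43 without RS 4 and -0.065 without RG 4. Pecam1, an adhesion protein of endothelium, was at 5.36 and 8.13 in RS, against 6.78, 7.36 and 8.44 in RG (adjusted p = 0.581). The 24 macrophage markers averaged 4.75 and 5.43 in RS, against 5.71, 6.11 and 5.10 in RG (median difference -0.57, 0 called, and -0.34 without RS 3, -0.95 without RS 4, -0.36 without RG 3 and -0.94 without RG 4). C1qc, a complement subunit of macrophages, was at 3.12 and 3.84 in RS, against 4.95, 5.21 and 3.98 in RG (difference -1.23 ± 0.36, adjusted p = 0.095), with no overlap. Ptprc, the pan-leukocyte antigen CD45, was at 3.21 and 4.16 in RS, against 4.56, 4.93 and 4.32 in RG (adjusted p = 0.346). The 22 stromal and preadipocyte markers averaged 5.24 and 6.27 in RS, against 6.27, 6.79 and 6.23 in RG (median difference -0.68, 0 called, and -0.15 without RS 3, -1.27 without RS 4 and -0.435 without RG 3). Pdgfra, the receptor that marks adipocyte precursors, was at 3.39 and 4.50 in RS, against 5.04, 6.14 and 5.42 in RG (difference -1.59 ± 0.62, adjusted p = 0.194). The mean levels of these 3 lists were lowest in RS 3 of the 5 arrays, and their part in the called genes was not tested.

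Single genes lay far apart between the RS arrays. Among genes at levels above 5, chosen after their values were seen, the haemoglobin gene Hbb-b1 was lower in RS 3 by the most, at 6.87 in RS 3 and 10.48 in RS 4, against 9.82, 10.54 and 9.19 in RG. Ptprb, Adgrf5 and Cdh5, 3 endothelial genes, were at 3.79, 4.44 and 5.58 in RS 3 and at 6.89, 7.47 and 8.51 in RS 4. Higher in RS 3 were Slc5a3, an inositol transporter, at 7.47 in RS 3 and 4.19 in RS 4, against 5.70, 5.02 and 6.03 in RG, and Ntrk3, a neurotrophin receptor, at 8.00 and 5.44 in RS, against 4.85, 4.53 and 5.80 in RG. Slc2a4, the insulin-responsive glucose transporter GLUT4, was at 8.67 in RS 3 and 6.27 in RS 4, against 7.14, 6.74 and 7.73 in RG. Klb, the co-receptor of FGF21, was at 8.54 in RS 3 and 6.05 in RS 4, against 7.17, 6.60 and 7.72 in RG. In the last 2 genes RS 3 lay above and RS 4 below all RG arrays. Of 2303 probe sets with either RS array over 1 log2 unit from the RG mean, 72 had both above and 95 both below. RS 3 alone was that far in 1083 and RS 4 alone in 1027, and the 2 lay on opposite sides in 26.

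The number of calls moved with each array left out. Without RS 3 it was 308, of which 83 were among the 172, and without RS 4 it was 35, of which 14 were. Without RG 2, RG 3 or RG 4 it was 17, 8 and 13. Of the 24 genes named by size, 13 kept the call without RS 3, 3 without RS 4, 5 without RG 2, 2 without RG 3 and 4 without RG 4, and none changed direction. With only the 5 RS and RG arrays in the fit, limma called 0 and 4045 had an unadjusted p under 0.05.

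**Figure D5:**
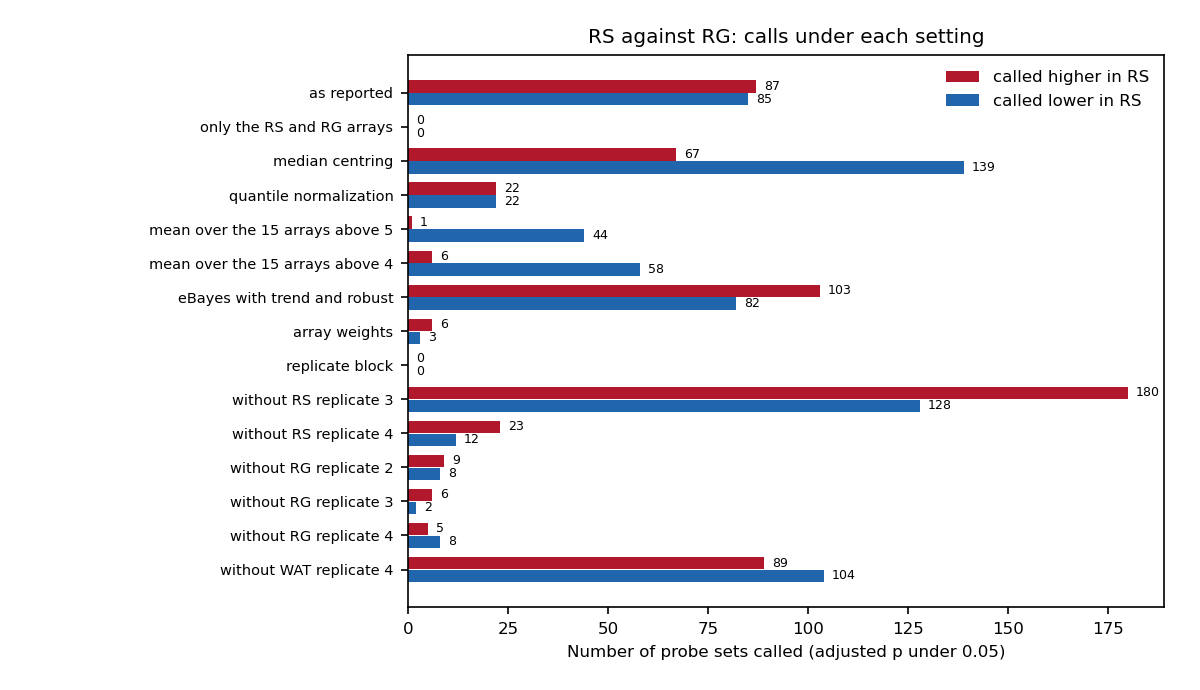
Number of probe sets called higher (red) and lower (blue) in RS (x axis) under each setting (y axis). The counts run between 0 of each with only the RS and RG arrays and 180 and 128 without RS replicate 3, against 87 and 85 as reported.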

How the data were processed

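Total RNA of sorted adipocytes was measured on 1-colour Affymetrix arrays. The authors deposited 1 log2 value for each probe set of each array. Per the submitters' processing notes the authors used RMA, affy 1.36.1 and Affymetrix Expression Console, and the order and settings are not given in the sources used here. RMA corrects background and normalizes arrays, and it compresses differences at low signal. Arrays carry no read depth, so their number limits the precision. Of 25206 probe sets, 23740 were given 1 symbol by matching their Entrez numbers to RefSeq's gene table of GRCm38.p6, and 1466 had none.

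Here, limma 3.58.1 in R 4.3.3 fitted all 15 arrays with a mean per group (lmFit, contrasts.fit and eBayes, 10 residual degrees of freedom), so RS, with 2 arrays, borrowed its spread from the other groups. The difference is RS minus RG, two-sided. P-values were adjusted by Benjamini-Hochberg across the whole table, at a threshold of 0.05. No probe set was filtered out. The procedure was tested on simulated data. Genes were named as the 12 largest called increases and decreases without overlap, leaving out predicted genes, small RNAs, chemosensory receptors and antigen receptor segments, with 16 reference genes and up to 4 members of lowest p per list. The comparison, genes and lists were chosen with earlier results of these data known, while the arrays of the comparison were set by their labels. Alternatives were the 5 arrays alone, median centring, quantile normalization, 2 filters on level, another variance model, array weights, a replicate block and left-out arrays.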

Additional observations from a re-analysis of the deposited data

How the results depend on the processing

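As reported, 172 probe sets were called, 87 higher and 85 lower in RS. With only the RS and RG arrays (3 residual degrees of freedom) limma called 0, 0 higher and 0 lower. Quantile normalization called 44, 22 higher and 22 lower, a mean over the 15 arrays above 5 left 45, 1 higher and 44 lower, and a mean above 4 left 64 with 6 higher, where fewer probe sets were tested. Array weights called 9, 6 higher and 3 lower. Median centring called 139 lower, with the total within 1.5 times. With the replicate number as a block (7 residual degrees of freedom) 0 were called, 0 higher and 0 lower, with 2761 at an unadjusted p under 0.05. Same-numbered arrays of different groups had residual correlations of -0.881 to -0.0498 over 24 pairs, all below 0. The lowest was that of WAT 2 and RG 2, the only arrays numbered 2. How much of the negative sign follows from the centring of the residuals was not tested. The correlations therefore do not tell whether same-numbered arrays belong together. What the replicate number stands for is not given in the labels, and its part in these values was not tested. The reported fit took the arrays as unpaired, and its p-values rest on that assumption. Leaving out 1 array gave 8 to 308 calls, 5 to 180 higher and 2 to 128 lower. Where an RS array was left out, the lone RS array is assumed to vary like the other groups. The cause of these shifts was not tested beyond the construction of the filters. Without WAT 4 the count was 193 and with an intensity trend and robust prior 185. Of the 24 genes named by size, all 24 kept the call under median centring, the trend and without WAT 4, 9 under quantile normalization, 3 with array weights and 0 with the block or the 5 arrays alone, and none reversed. With 2 RS arrays that differ as widely as those of RS and RG, and most increases at low signal, the arrays limit how far a single call can be read.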
